A study of Mus musculus with 8 samples.

Results

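Among the 25239 gene symbols measured in the mouse corpus callosum, 10 were taken by name as genes of homeostatic astrocyte function. The rule uses no measured value, though the choice was made with earlier results of these data known. They are *Aqp4* and *Kcnj10* (water and potassium), *Slc1a2*, *Slc1a3*, and *Glul* (glutamate), *Gja1* and *Gjb6* (gap junctions), and *Aldh1l1*, *Aldoc*, and *S100b* (metabolism and calcium binding). All 10 were listed and all 10 were among the 18123 genes tested.

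The study narrowed both common carotid arteries of mice with microcoils (bilateral common carotid artery stenosis, BCAS), which lowers blood flow to the brain, or operated without coils (sham). It asked how TRPA1, a redox-sensitive cation channel, takes part in the response of the white matter. The 8 libraries of polyadenylated RNA came from the corpus callosum, the tract that joins the hemispheres, of adult mice labelled C57BL/6, and the study's methods give those of the WT genotype as male C57BL/6J. With each genotype label, WT or TRPA1-KO (a constitutive *Trpa1* knockout line backcrossed to C57BL/6J), there was 1 sham library from day 14 and 1 BCAS library from each of days 7, 10, and 14. The labels do not say whether a library pools animals. No day had a second library, so the 3 days of a label stood in for replicates, and the spread between them holds differences of time as well as of animal.

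Astrocytes keep the surroundings of neurons and axons stable. They take up potassium and glutamate, move water at the end-feet that wrap vessels, share ions and metabolites through gap junctions, and supply metabolic substrates. After injury they turn reactive, with high levels of the intermediate filament gene *Gfap*. The 10 genes are used as general astrocyte markers as well as for these functions, though *Glul* and *S100b* are also expressed in oligodendrocyte lineage cells.

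The libraries held between 7896071 and 12952093 reads on genes, recovered from the deposited values. Levels are given below in normalized CPM, that is, read counts scaled by the authors to the size of each library. *Trpa1* had 1 read in the sham library labelled WT and 0 in each of the 3 BCAS libraries with that label, but 10 reads in the sham library labelled TRPA1-KO and 11, 3, and 7 reads in its BCAS libraries on days 7, 10, and 14. This goes against the labels, and the gene-level values do not show from which exons the reads came. Libraries are therefore called by their labels, and each direction between genotypes is one between labels. *Gfap* stood at 200.4 CPM (sham), then 1415, 1060.0, and 157 CPM (days 7, 10, and 14) under the WT label, and at 234, then 167, 169, and 427 CPM under the TRPA1-KO label. The tissue label could be checked on oligodendrocyte genes (*Mbp*, *Mog*, *Mag*, and 5 others), whose summed level was 12932 to 17362 CPM, and none of those 8 genes was at 0 in any library. The 6 cortical neuron genes, at 4555 to 6163 CPM in sum, and the 7 striatal neuron genes, at 636 to 1675 CPM, were present too.

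A few promoters are shown because their genes differ in how far they varied among the libraries. *Aldh1l1* varied most after *Aqp4*, and *Slc1a3* varied less. *Aldoc* is one of the genes with the same direction between labels on every day, though by little on days 10 and 14. The RefSeq windows (build GRCm38.p6) run from 250 bases before to 50 bases after an annotated transcript start. Those of *Aldh1l1* and the second of *Aldoc* lie within the span that GENCODE gives the gene. Capitals mark matches on either strand. For factors of the NFI family the letters searched were TTGGCA. For factors of the SOX family they were AACAAT. For factors of the STAT family they were TTCNNNGAA, with any letter at N. The promoter elements searched were the TATA box, read as TATAAA, and finally the GC box, read as GGGCGG. No 2 of the matches shown overlap.
*Aldh1l1*, chr6:90550543-90550842, plus strand: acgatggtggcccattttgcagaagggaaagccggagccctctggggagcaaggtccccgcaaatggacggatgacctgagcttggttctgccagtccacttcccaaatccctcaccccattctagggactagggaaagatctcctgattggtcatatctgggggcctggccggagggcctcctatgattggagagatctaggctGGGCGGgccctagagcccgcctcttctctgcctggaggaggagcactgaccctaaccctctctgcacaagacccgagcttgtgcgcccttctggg
*Slc1a3*, chr15:8710758-8711057, minus strand: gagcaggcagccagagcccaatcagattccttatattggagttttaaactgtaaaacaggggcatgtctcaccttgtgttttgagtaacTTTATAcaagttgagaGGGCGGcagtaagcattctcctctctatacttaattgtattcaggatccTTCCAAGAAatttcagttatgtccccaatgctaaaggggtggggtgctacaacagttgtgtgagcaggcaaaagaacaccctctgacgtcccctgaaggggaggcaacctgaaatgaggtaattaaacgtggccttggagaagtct
*Aldoc*, second window, chr11:78323948-78324247, plus strand: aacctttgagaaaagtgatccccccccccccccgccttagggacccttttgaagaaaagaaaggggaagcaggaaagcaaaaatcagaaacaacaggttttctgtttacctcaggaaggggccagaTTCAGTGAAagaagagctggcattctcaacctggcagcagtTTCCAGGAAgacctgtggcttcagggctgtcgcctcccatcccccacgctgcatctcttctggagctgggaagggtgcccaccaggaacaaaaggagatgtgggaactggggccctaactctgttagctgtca

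A window was found for 9 of the 10 genes, and *Aldoc* had a pair of starts, which gave 10 windows. The STAT letters stood in 2 of these windows, that of *Slc1a3* and the second of *Aldoc*, the latter with 2 matches. Of all 32851 RefSeq windows, 8.30% held them. The NFI letters stood in 2 windows (*S100b* and the first of *Aldoc*, against 14.1% of all windows), the TATA box in 1 (*Slc1a3*, 13.6%), the GC box in 5 (35.7%), and the SOX letters in 0 (10.7%). *Slc1a2*, *Gja1*, and *Gjb6* matched none of the 5 patterns. Each match describes letters in a window and no bound site.

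*Aqp4* encodes aquaporin 4, the water channel of astrocyte end-feet, and had the widest range of the 10 genes. With the label WT, its level was 109 CPM in the sham library and 155, 188, and 80.4 CPM in the BCAS libraries of days 7, 10, and 14. With the label TRPA1-KO, it was 88.3 CPM after sham and 88.8, 85.6, and 114 CPM on the same days. The day 7 and day 10 libraries labelled WT lay above the other 6 libraries, whereas the day 14 library with that label was the lowest of all 8, so the groups overlapped.

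*Kcnj10* encodes Kir4.1, the inward rectifier that carries most astrocytic potassium uptake, on chromosome 1 of GRCm38 from 172341210 to 172374085. Its level was 214 CPM (sham) and 291, 252, and 229 CPM (days 7, 10, and 14) under the WT label. The corresponding values under the TRPA1-KO label were 225 CPM and 234, 207, and 237 CPM. All BCAS libraries labelled WT lay above both sham libraries, which held for no other of the 10 genes. The day 14 values of the labels were close, and the BCAS groups overlapped.

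**Figure D1:**
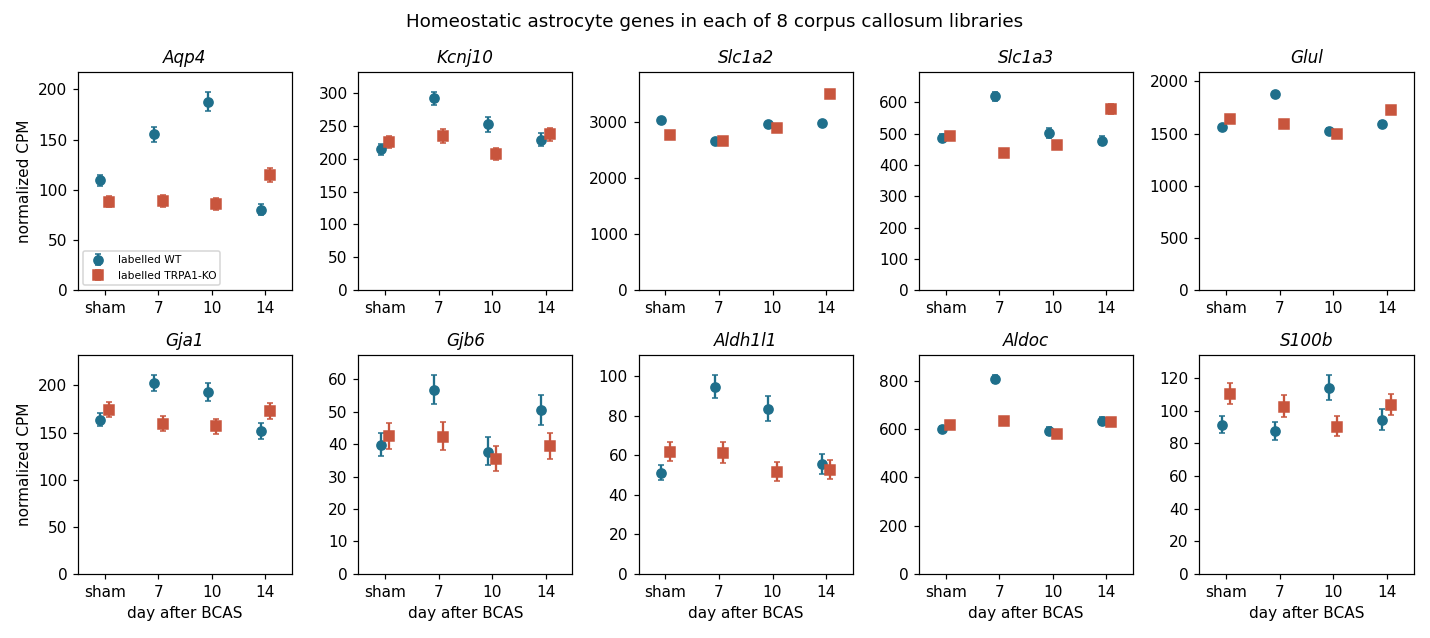
Level of each of the 10 genes in each library (vertical axes, normalized CPM, each starting at 0) by operation and day, with 1 point per library, a mark for each label, and bars for the 95% Poisson interval of the reads, which covers counting error only. *Aqp4* reached 188 CPM in the BCAS library labelled WT on day 10, and most other genes had their highest point on day 7 with that label.

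*Slc1a2* encodes GLT-1, the main glutamate transporter of the adult forebrain, on chromosome 2 from 102658659 to 102790784. Its level was 3045 CPM after sham and 2675, 2968, and 2984 CPM after BCAS under the WT label, and 2769.8 CPM after sham and 2675, 2898, and 3512 CPM after BCAS under the TRPA1-KO label. Both day 7 BCAS libraries were the lowest and the day 14 BCAS library labelled TRPA1-KO was the highest. *Slc1a2* was thus the one gene of the 10 whose highest level was in a library labelled TRPA1-KO.

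*Slc1a3* encodes GLAST, the transporter of radial glia and of cerebellar astrocytes that is also present throughout the forebrain (chromosome 15, 8634124 to 8710764). With the label WT, it stood at 487 CPM after sham and at 619, 501, and 477 CPM on days 7, 10, and 14. With the label TRPA1-KO, these levels were 492 CPM and 438, 464, and 579 CPM. The highest library was day 7 labelled WT, the second day 14 labelled TRPA1-KO, and the lowest day 7 labelled TRPA1-KO. The ratio of *Slc1a2* to *Slc1a3* reads was 4.32 in the day 7 library labelled WT and between 5.63 and 6.26 in the other 7, so the balance of both transporters differed in 1 library alone, with no replicate.

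*Glul* encodes glutamine synthetase, which turns glutamate taken up by astrocytes into glutamine (chromosome 1, 153899944 to 153909723). It was the steadiest of the 10 genes, at 1563 CPM (sham) and 1876, 1528, and 1594 CPM (BCAS) under the WT label. With the label TRPA1-KO, it stood at 1640.2 CPM and 1592, 1501, and 1725 CPM. Its coefficient of variation over the 8 libraries was 7.49%, against a median of 8.61% over the 10744 genes with at least 10 CPM. The microRNA gene *Mir8114* lies within *Glul* on the same strand and was listed with 884 to 1692 reads, so reads of *Glul* may be split between both entries. The protein-coding gene *Teddm2* overlaps *Glul* on the opposite strand, with 9 to 21 reads.

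*Gja1* encodes connexin 43 (chromosome 10, 56377330 to 56402513) and *Gjb6* connexin 30 (chromosome 14, 57123303 to 57133611), the main gap junction proteins of astrocytes. *Gja1* stood at 164 CPM after sham and 202, 193, and 152 CPM after BCAS under the WT label, and at 174 CPM and 159.5, 157, and 173 CPM under the TRPA1-KO label. *Gjb6* stood at 39.8 CPM and 56.6, 37.6, and 50.4 CPM under the WT label, and at 42.5 CPM and 42.3, 35.4, and 39.3 CPM under the TRPA1-KO label. Both were highest on day 7 under the WT label, but the second highest library was day 10 for *Gja1* and day 14 for *Gjb6*. Their ratio in reads was 5.13 on day 10 and 3.01 on day 14 under the WT label, the highest and the lowest of the 8 libraries, in which the sham ratio was 4.11 with either label. Both BCAS groups overlapped for each of these genes.

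*Aldh1l1* encodes a folate enzyme used as a general astrocyte marker (chromosome 6, 90486427 to 90600203). Its level was 51.2 CPM after sham and 94.5, 83.3, and 55.3 CPM after BCAS under the WT label. With the label TRPA1-KO, it was 61.5 CPM after sham and 61.2, 51.7, and 52.6 CPM after BCAS. The day 7 and day 10 libraries labelled WT stood apart, at 1.68 and 1.48 times the mean of both sham libraries, and the other 6 libraries lay between 51.2 and 61.5 CPM. The day 14 value under the WT label fell within the range of the BCAS libraries labelled TRPA1-KO.

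*Aldoc* encodes the brain isoform of the glycolytic enzyme aldolase (chromosome 11, 78322968 to 78327781). With the label WT, it had 599.7 CPM after sham and 807, 593, and 633 CPM after BCAS, and under the TRPA1-KO label 618 CPM and 635, 579, and 631 CPM. Only the day 7 library labelled WT stood out, with the other 7 between 579 and 635 CPM. *S100b* encodes a calcium-binding protein (chromosome 10, 76253853 to 76261159). It had 91.2 CPM and 87.6, 114, and 94.3 CPM under the WT label, and 110.2 CPM and 102, 90.1, and 103 CPM under the TRPA1-KO label. Of all 8 libraries, *S100b* was lowest on day 7 under the WT label. *Slc1a2* was low there too, at 2674.8 CPM, beside its lowest level of 2674.7 CPM on day 7 under the TRPA1-KO label. *Dip2a* overlaps it on the opposite strand, with 1131 to 2105 reads, and since the strand setting is not given, reads of both cannot be told apart. The other overlaps were with noncoding or unclassified transcripts, on either strand, at *Aqp4*, *Slc1a2*, *Slc1a3*, and *Aldh1l1*. *Kcnj10*, *Gja1*, *Gjb6*, and *Aldoc* overlapped no annotated gene.

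Across the 8 libraries, *Aqp4* had a coefficient of variation of 33.9% and *Aldh1l1* of 25.4%, higher than 98.4% and 97.1% of the 10744 genes with at least 10 CPM. *Gjb6* followed with 16.5%, and the other 7 lay below it. The 10 genes together took 0.595% to 0.722% of the reads of a library, lowest on day 7 under the TRPA1-KO label and highest on day 14 with the same label. *Slc1a2* and *Glul*, with the most reads, held most of this share.

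Divided by the length of the longest annotated transcript, the median level over the 8 libraries was 570.5 CPM per kb for *Glul*, 253 for *Slc1a2*, 224 for *Aldoc*, 110.4 for *Slc1a3*, and 66.3 for *S100b*. It was 43.2 CPM per kb for *Gja1*, 42.8 for *Kcnj10*, 19.6 for *Aqp4*, 19.5 for *Gjb6*, and 14.0 for *Aldh1l1*. Within this order, the ranges of *Slc1a2* and *Aldoc* overlapped, as did those of *Gja1* and *Kcnj10*, of *Aqp4* and *Gjb6*, and of *Gjb6* and *Aldh1l1*. The order depended on the length used. With the mean length of the annotated transcripts, only 2 genes kept their rank (*Aldoc* and *Slc1a3*), and *Slc1a2* stood before *Glul*.

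**Figure D2:**
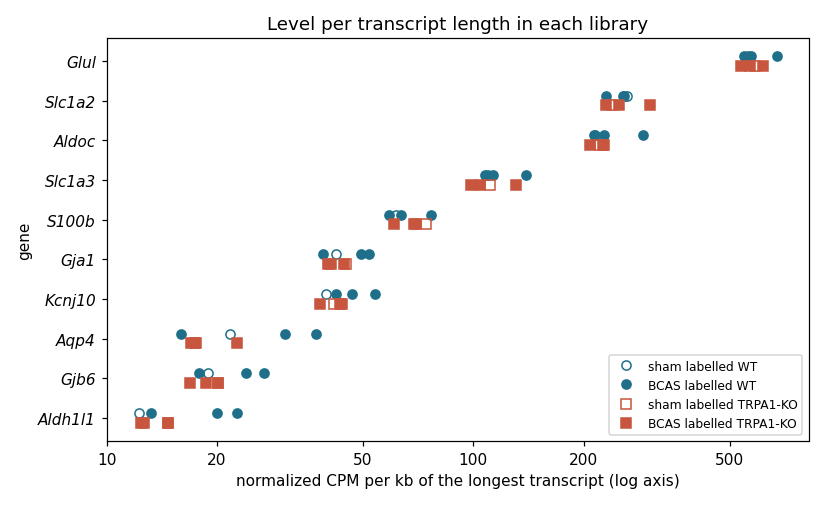
Level of each gene per kb of its longest transcript (horizontal log axis, normalized CPM per kb), with 1 point per library, filled for BCAS and open for sham. The points of *Glul* lie above all others and those of *Aldh1l1* reach from 12.3 to 22.6 CPM per kb.

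To set the libraries side by side, log2(CPM + 1) of each gene was taken minus its mean over both sham libraries. In bulk tissue, fewer astrocytes and less RNA per astrocyte cannot be told apart. After BCAS under the WT label, the median of the 10 genes was 0.37 on day 7 (8 genes above the sham mean), 0.11 on day 10 (7 genes), and -0.013 on day 14 (4 genes). With the label TRPA1-KO, it was 0.011 on day 7 (5 genes), -0.10 on day 10 (0 genes), and 0.079 on day 14 (8 genes). The sham libraries lay at -0.036 and 0.036, and the median over all genes tested differed from 0 by at most 0.0076 in any library. The day 7 library labelled WT held the highest level of 7 of the 10 genes and the day 10 library with that label the highest of 2, *Aqp4* and *S100b*.

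**Figure D3:**
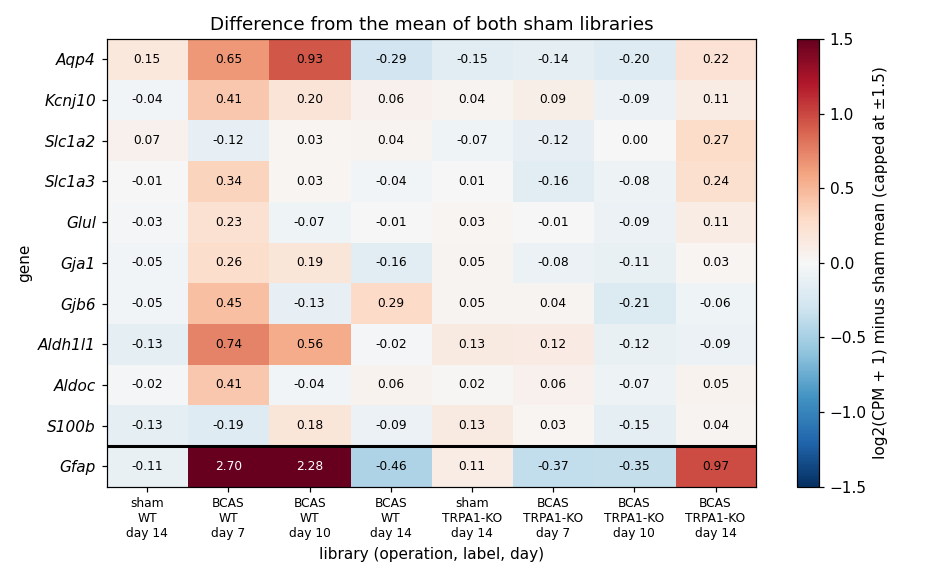
Difference of log2(CPM + 1) from the mean of both sham libraries, by gene (rows) and library (columns), with the value printed in each cell. The day 7 column labelled WT is above 0 for 8 genes, and the day 10 column labelled TRPA1-KO is below 0 for all 10.

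Day by day, 9 of the 10 genes were higher under the WT label than under the TRPA1-KO label on day 7 (median log2 difference 0.34), all 10 on day 10 (median 0.20), and 3 on day 14 (median -0.12). Each of these is a difference of 1 library from another and has no replicate check. *Aqp4* went from a difference of 0.80 and 1.12 on days 7 and 10 to -0.50 on day 14, the widest reversal. *Aldh1l1* (0.62, 0.68, and 0.070), *Gjb6* (0.41, 0.081, and 0.35), and *Aldoc* (0.34, 0.035, and 0.0060) were higher under the WT label on each of the 3 days. The 95% Poisson intervals of the labels overlapped for *Aldh1l1* on day 14, *Gjb6* on day 10, and *Aldoc* on days 10 and 14. How many of all genes tested keep 1 direction on all 3 days was not counted.

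Other cell type markers moved with this pattern. The 7 microglia genes (*Cx3cr1*, *P2ry12*, *Tmem119*, and 4 others) summed to 327 and 334 CPM in the sham libraries, to 893, 538, and 318 CPM on days 7, 10, and 14 under the WT label, and to 308, 319, and 426 CPM under the TRPA1-KO label. The 13 pan-reactive astrocyte genes summed to 292 and 329 CPM in sham, 2079, 1277, and 236 CPM under the WT label, and 252, 248, and 554 CPM under the TRPA1-KO label. *Gfap* alone made up most of this second sum in every library. The median of the 13 genes over the sham mean (log2) was 1.62 on day 7 (13 genes above) and 0.58 on day 10 (9 genes) under the WT label. On day 14 under the TRPA1-KO label it was 0.18 (9 genes). Both sums were thus high on days 7 and 10 under the WT label and on day 14 under the TRPA1-KO label. The 6 cortical neuron genes were lowest in those same 3 libraries, at 4555, 4774, and 4634 CPM against 5438 to 6163 CPM in the other 5. No microglia or cortical neuron gene of these lists was at 0 in any library, and the part of tissue composition in the levels of the 10 genes was not tested.

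When both labels were compared after BCAS, 3 libraries each, none of the 10 genes differed beyond the spread between libraries after adjustment. Their log2 fold changes on the log2(CPM + 1) scale ran from -0.067 (*Slc1a2*) to 0.47 (*Aqp4*), with 8 genes higher under the WT label, 2 lower, and a median of 0.14, beside 0.0010 over all genes tested. The median was 0.071 without the day 7 library labelled WT and 0.21 without the day 14 library with that label. By limma, 1 of the 10 genes (10%), *Aldh1l1*, had an unadjusted p under 0.05, as did 4.2% of all genes tested. With Benjamini-Hochberg adjustment over all 18123 genes, limma called 0 of the 10 and 0.0166% of all genes. Run on recovered reads, the quasi-likelihood test of edgeR and DESeq2 also called 0 of the 10 after adjustment, and had 2 (*Aldh1l1* and *Aqp4*) and 1 (*Aldh1l1*) with an unadjusted p under 0.05. For 0 of the 10 genes did the values of the groups not overlap, against 9.21% of all genes tested.

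After BCAS, *Aldh1l1* averaged 77.7 ± 20.2 CPM (SD, n = 3 libraries) under the WT label and 55.2 ± 5.25 CPM under the other, and the log2 fold change was 0.46 (SE 0.17, 95% interval 0.080 to 0.83). Its limma p was 0.022 and its Benjamini-Hochberg adjusted p was 0.98, and an exact permutation test gave a two-sided p = 0.20, where 3 against 3 libraries allow no p below 0.10. Without the day 14 library labelled WT, its log2 fold change was 0.68 and its limma adjusted p was 0.047, the sole adjusted call of a member when a library was left out. The same omission raised the number of the 10 genes with an unadjusted p under 0.05 from 1 to 4 (*Aldh1l1*, *Aqp4*, *Gja1*, and *Kcnj10*). It also raised the share of all genes tested from 4.2% to 10.2%, and the adjusted calls over all genes from 3 to 29. Without the day 7 library labelled WT, where *Aldh1l1* had a log2 fold change of 0.30, or without the day 10 or the day 14 library labelled TRPA1-KO, 0 of the 10 had an unadjusted p under 0.05. Without the day 10 library labelled WT, the 1 such gene was *Gjb6*, and *Aldh1l1* stood at 0.39. With 4 libraries against 4 and the operation as a covariate, *Aldh1l1* stood at 0.28 (limma unadjusted p = 0.12).

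*Aqp4* had 141 ± 55.1 CPM under the WT label and 96.3 ± 15.7 CPM under the TRPA1-KO label (log2 fold change 0.47, standard error 0.26, limma adjusted p = 0.98, exact permutation p = 0.40). This difference was 0.23 without the day 10 library labelled WT and 0.83 without the day 14 library with that label. The corresponding values were 0.28 (standard error 0.14) for *Gjb6*, 0.18 (0.10) for *Kcnj10*, 0.15 (0.11) for *Gja1*, 0.13 (0.12) for *Aldoc*, and 0.11 (0.13) for *Slc1a3*. *Glul* (0.050) and *S100b* (-0.0064) lay near 0. *Slc1a2* had 2876 ± 174 CPM under the WT label and 3028 ± 433 CPM under the TRPA1-KO label, and the 95% interval of its log2 fold change ran from -0.45 to 0.32. The exact permutation p of the 10 genes lay between 0.20 and 1. For comparison, *Gfap* differed by 1.43 on the same scale (standard error 0.70, limma adjusted p = 0.98), with 877 ± 649 against 254 ± 149 CPM. It ranged from 0.83 without the day 7 library labelled WT to 2.41 without the day 14 library with that label, where its limma adjusted p was 0.041.

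**Figure D4:**
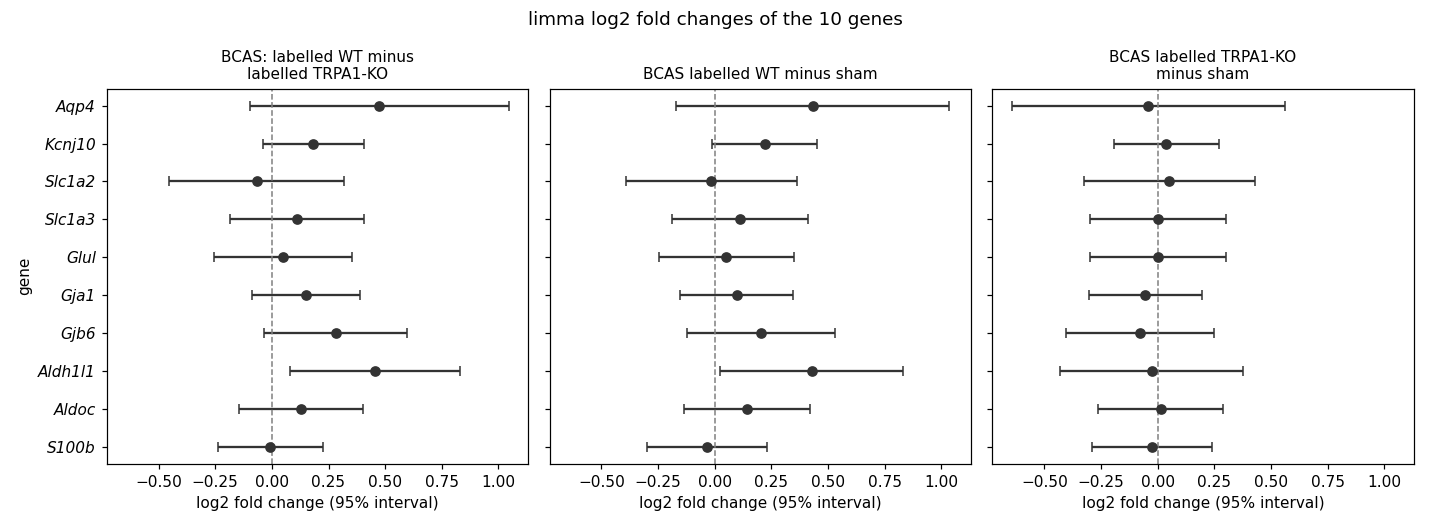
Log2 fold change of each gene by limma (horizontal axis, log2(CPM + 1) scale, bars are 95% intervals) between the BCAS groups and of each BCAS group against the sham libraries. Between the labels, the interval of *Aldh1l1* (0.080 to 0.83) alone leaves out 0, before adjustment.

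Against the sham libraries, which are the same 2 for both labels and come from day 14 alone, the genes did not pass the test either. In the BCAS libraries labelled WT, the median log2 fold change was 0.13, from -0.033 (*S100b*) to 0.43 (*Aqp4*), with 8 genes higher and 2 lower. This median was 0.041 without day 7 and 0.18 without day 14. *Aldh1l1* (0.43, standard error 0.18, exact permutation p = 0.30) was the 1 gene with an unadjusted limma p under 0.05, against 5.45% of all genes tested. After adjustment, limma called 0 of the 10 and 0% of all genes, with adjusted p between 0.91 and 0.998. *Kcnj10* (257 ± 31.6 against 219.6 ± 8.04 CPM, log2 fold change 0.22, standard error 0.11, exact permutation p = 0.20) was the 1 gene whose values did not overlap with sham, as held for 19.9% of all genes tested. DESeq2 gave an unadjusted p under 0.05 for *Aldh1l1* and *Kcnj10* and edgeR for *Aldh1l1*, and neither called a member after adjustment. The limma count was 4 without the day 14 library labelled WT, where the share of all genes tested rose to 11.1% and the adjusted calls over all genes from 0 to 45, none of them among the 10. It was 0 without the day 7 library with that label or without the sham library labelled WT, and without the day 10 library the 1 gene was *Gjb6* in place of *Aldh1l1*.

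In the BCAS libraries labelled TRPA1-KO, the log2 fold changes against sham lay between -0.078 (*Gjb6*) and 0.051 (*Slc1a2*), with a median of -0.013 and 5 genes in each direction. None had an unadjusted limma p under 0.05 (0 of 10, against 2.74% of all genes tested), nor by edgeR or DESeq2, and every limma adjusted p was 1, where 0.00552% of all genes passed. The 95% intervals were wide, however, and reached from -0.64 to 0.56 for *Aqp4*. With all 6 BCAS libraries against sham, 9 of the 10 genes were higher, by at most 0.20 (*Aldh1l1*), with a median of 0.059. By limma 0 of them had an unadjusted p under 0.05 (3.53% of all genes tested) and 0 had an adjusted p under 0.05 (0% of all genes). The 7 striatal neuron genes, which mark tissue beside the corpus callosum, summed to 1238 and 1675 CPM in sham, 636 to 925 CPM after BCAS under the WT label, and 719 to 1159 CPM under the TRPA1-KO label, and their part in the levels of the 10 genes was not tested. The exact permutation p, which can reach 0.036 with 6 against 2 libraries, lay between 0.32 and 0.96.

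Genes that work with the 10 were read from lists of related function. None of their members had a limma adjusted p under 0.05 between the BCAS groups or against sham under the WT label. An unadjusted limma p under 0.05 was held by 4.2% of all genes tested between the labels. Against sham, it was held by 5.45% under the WT label and by 2.74% under the TRPA1-KO label. These shares stand beside each count from the lists below. Of 7 partners in ion transport, 6 were higher under the WT label than under the TRPA1-KO label after BCAS (median 0.15), and 1, *Atp1b2*, a sodium pump subunit of astrocytes, had an unadjusted p under 0.05 (0.28, standard error 0.12). Against sham under the WT label, *Atp1b2* (0.32) and *Kcnj16*, which encodes Kir5.1, the partner subunit of Kir4.1 (0.42), were higher, and *Slc12a2*, the sodium-potassium-chloride cotransporter NKCC1 (-0.34), was lower, each with an unadjusted limma p under 0.05. *Kcnj16* stood at 28.6, 19.8, and 18.1 CPM on days 7, 10, and 14 under the WT label and at 16.6 and 15.5 CPM in sham. Of 7 genes of AQP4 anchoring or of the end-foot (*Dag1*, *Dmd*, and others), 6 were higher between the labels, all by at most 0.10. Of these 7, 0 had an unadjusted p under 0.05.

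Of 9 further genes of glutamate, glutamine, GABA, and glycine handling, 4 were higher and 5 lower between the labels (median -0.042). One (1) passed an unadjusted p under 0.05, *Grm3*, an astrocytic metabotropic glutamate receptor gene, at -0.28 (standard error 0.12). *Slc38a3* was higher against sham under the WT label (0.29, standard error 0.12), with an unadjusted limma p under 0.05 and an adjusted p of 0.89. Against sham under the TRPA1-KO label, *Slc7a10*, the transporter Asc-1, was higher (0.31) with an unadjusted limma p under 0.05 and an adjusted p of 1. Among the partners of the astrocyte connexins, *Gjb2*, connexin 26, was higher under the WT label (0.52, standard error 0.23). It stood at 5.42, 4.41, and 4.06 CPM against 3.67, 1.92, and 3.33 CPM. The groups did not overlap, as held for 9.21% of all genes tested between the labels. *Gjb2* had an unadjusted limma p under 0.05 and a limma adjusted p of 0.98. *Gjc3*, connexin 29 of oligodendrocytes, was lower against sham under the WT label (-0.41, unadjusted limma p under 0.05), beside oligodendrocyte genes whose sum was 13194 to 14139 CPM in those libraries and 15827 and 17362 CPM in sham. That sum was 12932 to 14620 CPM in the BCAS libraries labelled TRPA1-KO. Whether the level of that cell type sets this connexin value was not tested.

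Of 13 genes of astrocyte metabolism, 10 were higher under the WT label (median 0.13) and 0 had an unadjusted p under 0.05 between the labels. Against sham under the WT label, *Gys1*, glycogen synthase (0.29), and *Acsbg1*, an acyl-CoA synthetase (0.17), did. Against sham under the TRPA1-KO label, *Prodh*, proline dehydrogenase (-0.26), and *Slc2a1*, the glucose transporter GLUT1 (-0.24), were lower with an unadjusted limma p under 0.05 and an adjusted p of 1. Of 24 other genes of astrocyte identity, 21 were higher between the labels (median 0.13), close to the median of the 10 genes, and *Lcat* (0.70, standard error 0.25) and *Ntsr2* (0.23, standard error 0.086) had an unadjusted limma p under 0.05. *Lcat*, which encodes a cholesterol esterifying enzyme, stood at 33.3, 30.0, and 15.1 CPM on days 7, 10, and 14 under the WT label, against 12.8 to 16.1 CPM in the other 5 libraries. All 13 pan-reactive genes were higher (median 0.73), with 2, *Cxcl10* and *Osmr*, at an unadjusted limma p under 0.05 and a limma adjusted p of 0.98. By day, *Cxcl10* stood at 5.60, 1.26, and 0 CPM under the WT label and at 0, 0.107, and 0 CPM under the TRPA1-KO label. *Osmr* stood at 18.1, 8.82, and 4.83 CPM against 4.68, 2.56, and 6.45 CPM. Both were thus highest in the day 7 library labelled WT.

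Outside the list, the genes whose profile over the 8 libraries was most like the mean standardized profile of the 10 were *Hadha*, *Cflar*, *Lhfpl2*, *Mt2*, and *Mt1*, of 10734 genes averaging 10 CPM or more. *Mt1* and *Mt2* encode metallothioneins, which bind metals and are abundant in astrocytes. *Mt1* stood at 377, 258, and 226 CPM on days 7, 10, and 14 under the WT label, at 189.6, 168, and 242 CPM under the TRPA1-KO label, and at 191 and 236 CPM in sham. The likeness was measured as the Pearson correlation over these 8 libraries (0.970 to 0.979) and is given as a description without a test. All 5 genes were highest in the day 7 library labelled WT. The likeness was not particular to astrocyte genes, as the microglia genes *P2ry12* (0.961) and *Tmem119* (0.959) ranked 12 and 15.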

How the data were processed

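RNA of the corpus callosum was measured in 8 libraries (4 labelled WT, 4 labelled TRPA1-KO). The authors used HISAT version 2.1.0 (genome GRCm38) for mapping, subread version 2.0.1 for read counts, and edgeR version 3.34.1 for normalization. Annotation, strand setting, and any gene filter are not given in the sources used here. The deposited signal is a normalized count on the CPM scale (edgeR effective library sizes), not logged, with sums of 966202 to 1022161 per library. All values (100%, within 0.01 read) were whole multiples of 1 read, so reads were recovered, 7896071 to 12952093 per library. A floor of 3 reads was 0.235 to 0.378 CPM. Read-based precision covers counting error only. No per-sample column was left unmapped.

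Log2(CPM + 1) of 18123 genes (mean of at least 0.1 CPM) was tested, two-sided, with limma (version 3.58.1, R version 4.3.3), with a trend on mean expression and Benjamini-Hochberg adjustment. The 6 BCAS libraries entered the comparison between labels, and all 8 those with sham (both shams as 1 group). Single genes were also tested by exact two-sided permutation of the absolute difference of mean log2(CPM + 1). Between the labels, the p-values measure the spread between libraries of different days. Against sham, the spread also holds that between both sham libraries, which share day 14 and differ in label. A difference from sham can therefore hold time after the operation as well as the operation. edgeR version 4.0.16 and DESeq2 version 1.42.0 on recovered reads, other pseudocounts, filters, and scalings, the postoperative day as a replicate block, and omission of each library were alternatives. The fits were tested on simulated data.

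The 10 genes, the lists, and the motifs were chosen with earlier results of these data known. Named genes are the 10, *Trpa1*, *Gfap*, up to 3 genes per list with the smallest p, and the 5 most alike in profile. Some genes of the lists are not reported here by name. Gene positions and lengths come from GENCODE M21 and promoters from RefSeq, both GRCm38.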

Additional observations from a re-analysis of the deposited data

How the results depend on the processing

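With the postoperative day as a replicate block, 2 of the 10 genes (*Aldh1l1* and *Gjb6*) had an unadjusted p under 0.05 between the labels, against 1 without it, and the block changed no other call of these genes. Same-day libraries did not vary together (correlation of deviations -0.10, 0.0051, and -0.26 on days 7, 10, and 14), so a shared day was not taken as a pairing. The count was 2 with edgeR, and 0 without a filter, with 4 against 4 libraries, or without both day 7 BCAS libraries, an omission chosen after seeing the data. Without these, *Slc1a3* (-0.084), *Glul* (-0.044), and *S100b* (0.10) turned direction between the labels. Against sham under the WT label, the count was 0 without a filter, 2 with DESeq2, and 0 without day 7. *Slc1a2* (0.035), *Slc1a3* (-0.0025), *Glul* (-0.037), and *S100b* (0.047) turned direction without day 7, and *S100b* (0.10) with the sham library of the same label alone. Under the TRPA1-KO label, 3 genes were higher with that single sham library, and *Gfap* lay at -0.030. Without day 7, 5 genes were higher in all BCAS libraries than in sham. Why these values turned was not tested. Over all genes tested, adjusted calls between the labels went from 3 to 17 with DESeq2, 10 with 4 against 4 libraries, 0 with all 8 libraries in 1 fit, and 1 without a filter, with the block, or without day 7. Against sham, DESeq2 gave 17 (WT label), 4 (TRPA1-KO label), and 6 (all BCAS) adjusted calls against 0, 1, and 0 by limma, and the call of the TRPA1-KO label was lost without a filter, with the sham library of the same label, or without day 7. Unadjusted calls went from 988 to 359 under the WT label with that sham library alone and from 496 to 254 under the TRPA1-KO label with DESeq2. By mean transcript length, 2 genes kept their rank. Leaving out 1 library at a time ranged as follows, where a lone sham library was assumed to vary like the other groups. Between labels, 0 to 4 genes had an unadjusted p under 0.05, 0 to 1 an adjusted one, and 6 to 10 were higher. Directions turned between labels for *Slc1a2* (-0.15 to 0.045), *Slc1a3* (-0.0036 to 0.23), *Glul* (-0.039 to 0.11), *Aldoc* (-0.0034 to 0.22), and *S100b* (-0.11 to 0.074). The same held against sham under the WT label (0 to 4 genes with an unadjusted p under 0.05) for *Slc1a2* (-0.084 to 0.052), *Slc1a3* (-0.0025 to 0.19), *Glul* (-0.037 to 0.11), and *S100b* (-0.17 to 0.10). Under the TRPA1-KO label, 2 to 8 genes were higher than in sham, and *Slc1a2* (-0.061 to 0.14) and *Gfap* (-0.36 to 0.31) turned. In all BCAS libraries *S100b* ranged from -0.16 to 0.11. The median of the 10 ranged from 0.071 to 0.21 between labels, and was 0.088 with 4 against 4 libraries and 0.078 without both day 7 libraries. Against sham it ranged from 0.041 to 0.18 (WT label), from -0.061 to 0.039 (TRPA1-KO label), and from 0.0075 to 0.095 (all BCAS). Depth limited no member, since the lowest had 298 reads in a library, and the number of libraries limits the precision.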
